A study of Mus musculus with 34 samples.

Results

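The loss of Rfx3 was measured by bulk RNA sequencing in mouse ependymal cells, which line the ventricles of the brain and carry many motile cilia. The comparison takes 12 of the 34 libraries of the study, picked by the titles of the samples: 6 knockouts with the genotype Rfx3-/- and 6 wild types of the same line. Both groups came from the walls of the lateral ventricles at E18.5, were cultured until confluent and then spent 4 days without serum, which lets ependymal cells form. The labels give the strain of both as C57BL/6, while the titles also carry the term OF1, which the labels do not explain. They do not say how the Rfx3 allele was made, nor whether replicates are separate embryos or cultures, so p-values measure only the spread between these samples. The other libraries are knockouts of Rfx1 and Rfx2 with their own wild types. Of these, the Rfx2 line (6 knockouts and 8 wild types, cultured alike) is used only where its effect is set beside that of Rfx3.

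RFX factors are winged-helix transcription factors that bind the X-box, a pair of inverted half-sites found in the promoters of many ciliary genes. RFX3 is known for its part in building motile and primary cilia, where it works beside FOXJ1, which drives the genes of motile cilia. Ependymal cells build many motile cilia: regulators of the GEMC1 and MCIDAS family start multiciliation, centrioles are amplified on deuterosomes and dock at the cell surface, transport complexes carry cargo into the axoneme, and dynein arms, radial spokes and a central pair of microtubules make it beat.

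The 12 libraries held 23.1 to 53.4 M counts and 16093 to 17245 detected genes. Levels are CPM, library-scaled counts, after TMM scaling. Differences are log2 of knockout over wild type with the standard error (SE) of edgeR's quasi-likelihood test, and a gene is called at a Benjamini-Hochberg adjusted p below 0.05. The knockouts differed among themselves. In a principal component analysis the first component (51.1% of the variance) set knockout replicates 4, 5 and 6 (55.63 to 63.12) furthest from the wild types (-39.77 to -16.35). Knockout replicates 1 to 3 lay between them (-2.5 to 2.66), also apart from the wild types. The second component (22.3%) had knockout replicate 3 at one end and wild-type replicate 6 at the other. In knockout replicate 3 the difference from the wild-type mean followed gene length: its median was 0.403 (log2) over genes with up to 3371 exonic bases and -0.444 over genes with more than 5908, while in the other 11 libraries these medians lay between -0.0505 and 0.0549. Reads of Y-linked genes exceeded 100 CPM in 4 knockout and 2 wild-type libraries, among them knockout replicates 4 to 6 and wild-type replicate 6. The part of these features in the results was not tested. Counts of each list without knockout replicates 4 to 6 are given beside it, with the number at an unadjusted p below 0.05 (edgeR) in parentheses where the count is 0, and the named genes whose call ended there are stated. Counts without knockout replicate 3 are given where they moved by over 1.5 times. In bulk RNA, fewer cells of a type and less RNA per cell cannot be told apart.

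Rfx3, at chr19:27761721-28011166 of GRCm38, had 24.9, 40.7 and 51.7 CPM in the knockouts and 157, 172 and 209 CPM in the wild types (lowest, median and highest of 6). All knockouts lay far below all wild types, and knockout replicate 3 was the lowest. The fall was 4.42-fold (log2 difference -2.14, SE 0.15, edgeR adjusted p = 4.16e-05). Which exons the allele lacks is not given in the sources used here, so the remaining reads may come from outside the deleted part.

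Of 14340 genes tested, 1857 were lower in the knockouts (12.9%) and 1517 higher (10.6%). Among them 570 were lower (3.97%) and 137 higher (0.955%) by at least 2-fold, and the median log2 difference over all genes tested was 0.02. Knockout replicates 4 to 6 stood apart, and without them 996 genes were called (6.89%), 717 lower (4.96%) and 279 higher (1.93%). The calls shared by both fits were 684 lower, or 36.8% of the larger list and 95.4% of the smaller, and 256 higher, or 16.9% and 91.8%. Without knockout replicate 3 the calls numbered 2844 lower and 2705 higher. Counts of list members in the following paragraphs stand beside the 12.9% of all genes lower and 10.6% higher.

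**Figure D1:**
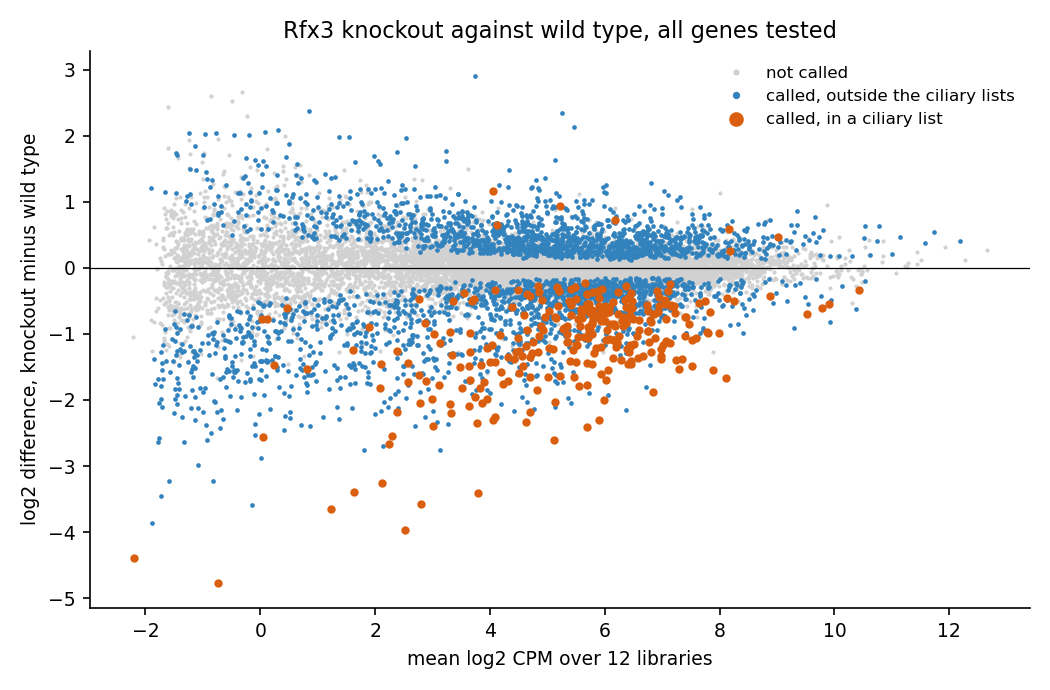
Log2 difference, knockout minus wild type (vertical axis), against mean log2 CPM over the 12 libraries (horizontal axis) for 14340 genes tested, with genes not called in grey, called genes in blue and called genes of the ciliary lists in orange. Of the orange points 282 lie below 0 and 7 above.

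Of 9 RFX genes and partners tested 3 were lower, Rfx3 itself, Rfx2 and Rfx1. Rfx2, a close relative of Rfx3, had 60.0, 72.9 and 105 CPM in the knockouts and 111, 119 and 124 CPM in the wild types (log2 difference -0.56, SE 0.12, edgeR adjusted p = 0.00861). Its groups did not overlap, and knockout replicates 1 and 2 came nearest to the wild types. Rfx1 had 37.3, 45.4 and 56.7 CPM against 57.1, 64.3 and 74.5 CPM (-0.45, SE 0.11, edgeR adjusted p = 0.0111), also without overlap. Neither was called without knockout replicates 4 to 6 (edgeR adjusted p = 0.0669 for Rfx2 and 0.11 for Rfx1). Rfx4, a family member of neural progenitors, had 135 to 177 CPM against 141 to 159 CPM, with overlap and no call (0.10, edgeR adjusted p = 0.282). Rfx7 (-0.13), Rfx8 (-0.46) and the genes of the complex that controls MHC class II, Rfx5 (-0.06), Rfxap (0.03) and Rfxank (0.03), were not called. Exons of Rfxank overlap Nr2c2ap on the opposite strand. The signs of Rfx5, Rfxap and Rfxank turned when knockout replicate 3 was left out.

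The X-box was searched in RefSeq's promoters of GRCm38.p6, 250 bases before to 50 after each start, on both strands and with a spacer of up to 3 bases between the half-sites. A match was present in 73 of 1469 promoters of genes called lower (4.97%), in 9 of 1193 of genes called higher (0.754%) and in 149 of 8580 of genes not called (1.74%). Over the whole table of 32851 promoters the share was 1.53%. Among genes of the ciliary lists 32 of 232 promoters of genes called lower held a match (13.8%), beside 9 of 77 of those not called (11.7%). Outside those lists 41 of 1237 promoters of genes called lower held one (3.31%). The share was 5.99% among genes called lower with and without knockout replicates 4 to 6 and 4.39% among those called only with them. A stricter palindrome of the same motif, GTTNCC and GGNAAC with 2 bases between them, was present in 1.57% of promoters of genes called lower. It was in 0.335% of those called higher, in 0.583% of those not called and in 0.451% of the table. Within the ciliary lists the order was the reverse, with 6 of 232 promoters of genes called lower (2.59%) and 5 of 77 of those not called (6.49%).

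By list, matches were most frequent for the nexin link and rulers (5 of 17), the central pair (6 of 22), the outer dynein arm (4 of 15) and the transition zone (5 of 21). The letters of the motif were in 0 of 15 promoters of the inner dynein arm list in this window. They were also in 0 of 24 for basal body docking and 0 of 12 for IFT-A and dynein-2. Spag16, Hsph1 and Bbs1 are shown because they are the genes called lower with a match that the naming rule picked. Ttll10 and Hydin, which are described with the tubulins and the central pair and lie outside that rule, were lower and hold a match too. Spag16 belongs to the central pair, Hsph1 is a chaperone and Bbs1 a subunit of the BBSome. The promoters run 5′ to 3′ on the strand of the gene, from 250 bases before the start to 15 after it, and capitals mark the match.
Spag16 promoter, chr1:69826720-69826984, forward strand: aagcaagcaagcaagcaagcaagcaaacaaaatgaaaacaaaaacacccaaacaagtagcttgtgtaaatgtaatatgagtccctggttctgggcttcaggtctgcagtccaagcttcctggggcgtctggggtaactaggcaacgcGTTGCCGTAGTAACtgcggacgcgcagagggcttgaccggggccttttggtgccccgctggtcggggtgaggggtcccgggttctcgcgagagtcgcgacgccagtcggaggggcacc
Hsph1 promoter, chr5:149636322-149636586, reverse strand: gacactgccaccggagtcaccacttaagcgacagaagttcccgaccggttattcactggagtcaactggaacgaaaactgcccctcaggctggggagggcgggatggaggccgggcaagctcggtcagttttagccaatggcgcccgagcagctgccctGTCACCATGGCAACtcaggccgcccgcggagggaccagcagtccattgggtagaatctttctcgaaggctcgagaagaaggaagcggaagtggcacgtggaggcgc
Bbs1 promoter, chr19:4906613-4906877, reverse strand: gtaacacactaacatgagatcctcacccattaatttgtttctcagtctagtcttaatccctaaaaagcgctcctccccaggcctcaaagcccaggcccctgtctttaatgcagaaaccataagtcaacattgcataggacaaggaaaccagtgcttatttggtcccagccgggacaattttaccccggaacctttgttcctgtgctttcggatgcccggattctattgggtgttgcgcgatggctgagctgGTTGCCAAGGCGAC

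The match begins 103 bases before the start in Spag16, 91 before it in Hsph1 and 1 base after it in Bbs1. Spag16 had 3.62, 5.79 and 10.7 CPM in the knockouts and 25.99, 32.6 and 34.5 CPM in the wild types, so that each knockout lay far below the lowest wild type (log2 difference -2.35, SE 0.23, edgeR adjusted p = 0.000184). Hsph1 had 170.2, 204 and 278 CPM against 366, 396 and 429 CPM (-0.87, SE 0.12, edgeR adjusted p = 0.000902), and Bbs1 had 72.8, 84.9 and 131 CPM against 144, 155 and 165 CPM (-0.66, SE 0.14, edgeR adjusted p = 0.00793), with no overlap in either. Without knockout replicates 4 to 6, Spag16 (-1.91) and Hsph1 (-0.63) were called and Bbs1 (-0.42, edgeR adjusted p = 0.0829) was not. A match is a stretch of letters, not a measured binding site.

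Ciliary genes were lower as a body. Over the 15 lists of centriole, axoneme, transport and other ciliary genes, 282 of 378 genes tested were lower (74.6%, against 12.9% of all genes) and 7 higher, with a median log2 difference of -0.78 against 0.02 over all genes. These lists held 143 of the 570 genes lower by at least 2-fold. The median difference of the 282 genes from the wild-type mean was -0.44, -0.54 and -0.85 (log2) in knockout replicates 1 to 3 and -1.53, -1.49 and -1.80 in replicates 4 to 6. By this median they were furthest below the wild types in replicates 4 to 6. The 282 genes were picked as lower in these same libraries, so a median below 0 was partly given by the choice. Over all tested members, called or not, the inner dynein arm list had a mean difference of -0.92 and -0.96 in knockout replicates 1 and 2. The BBSome list had -0.12 and -0.16 in the same libraries. Without knockout replicates 4 to 6, 174 ciliary genes were lower. Over the genes among the 282 with more than 5908 exonic bases, knockout replicate 3 stood at -1.13, as low as replicates 4 and 5 (-1.1 each). Over those with up to 3371 bases it stood at -0.751, near replicates 1 (-0.534) and 2 (-0.681).

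Inner dynein arms shape the ciliary beat. All 17 genes tested of this list were lower (median -1.65), and 16 were lower without knockout replicates 4 to 6. Dnah12, a heavy chain, had 4.05, 9.72 and 33.4 CPM in the knockouts and 78.8, 91.5 and 136 CPM in the wild types, 6.10-fold lower (log2 difference -2.61, SE 0.45, edgeR adjusted p = 0.00279). Dnah10, another heavy chain, had 4.21, 8.70 and 22.8 CPM against 44.9, 57.8 and 93.5 CPM (-2.33, SE 0.38, edgeR adjusted p = 0.00217). In both genes knockout replicates 1 and 2 were the highest knockouts, and still below each wild type. Dnah7b (-0.88) and Dnah7c (-1.51) were lower too, but are near-identical copies between which reads may be split. Dnah7b (edgeR adjusted p = 0.0958) was not called without knockout replicates 4 to 6. Wdr49, a WD-repeat gene of the list, fell by 1.98 (SE 0.28, edgeR adjusted p = 0.00123).

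Outer dynein arms provide most of the force. Of 20 genes tested 14 were lower (median -0.98), and 1, Dynll2, a light chain shared with other motors, was higher (0.25). In the fit without knockout replicates 4 to 6 the counts were 11 lower and 0 higher (1 unadjusted). Dnah5, an outer arm heavy chain, had 19.3, 35.9 and 56.9 CPM in the knockouts and 87.0, 101 and 174 CPM in the wild types (log2 difference -1.61, SE 0.28, edgeR adjusted p = 0.00287). Its partner Dnah9 had 93.5, 194 and 262 CPM against 312, 348 and 477 CPM (-0.99, SE 0.21, edgeR adjusted p = 0.007). Both were lowest in knockout replicate 3, the library low in long genes, and Dnah9 was not called without knockout replicates 4 to 6 (edgeR adjusted p = 0.0754). Dnah17, a heavy chain known from sperm, lay at 0.620 to 1.78 CPM against 0.613 to 1.44 CPM and was not called. Efcab1, the calcium sensor calaxin of the outer arm, had 1.22, 4.10 and 10.2 CPM against 40.5, 46.5 and 76.1 CPM, 10.6-fold lower (-3.40, SE 0.42, edgeR adjusted p = 0.000661), and Armc4, of the docking complex, fell by 2.39 (SE 0.34, edgeR adjusted p = 0.00121). Each knockout of both genes lay below each wild type.

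Dynein arms are assembled in the cytoplasm by dedicated factors, of which 14 of 19 were lower (median -0.75), or 10 lower without knockout replicates 4 to 6. Lrrc6, one of them, had 4.33, 11.3 and 18.998 CPM in the knockouts and 29.9, 34.4 and 39.6 CPM in the wild types (log2 difference -1.58, SE 0.35, edgeR adjusted p = 0.00845). Dnaaf3, another, had 25.3, 40.7 and 57.1 CPM against 65.4, 74.8 and 81.5 CPM (-0.84, SE 0.18, edgeR adjusted p = 0.00784). Both were called without knockout replicates 4 to 6 (-0.94 and -0.47).

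The axonemal scaffold fell in all its parts. Lower were 21 of 21 genes of the nexin link and axonemal rulers (median -1.15), 25 of 26 of the central pair (-1.27), 15 of 21 of the radial spokes (-1.10) and 25 of 28 microtubule inner proteins (-1.16). These counts without knockout replicates 4 to 6 were 18, 15, 14 and 20. Spag17, a large central pair protein, had 0.708, 1.16 and 5.34 CPM in the knockouts and 22.4, 25.5 and 41.7 CPM in the wild types, 11.9-fold lower (log2 difference -3.57, SE 0.51, edgeR adjusted p = 0.0013). Cfap73, which helps to hold inner arms on the doublet, had 0.236, 0.805 and 2.15 CPM against 8.82, 10.5 and 13.7 CPM (-3.39, SE 0.40, edgeR adjusted p = 0.000505). Neither gene overlapped between groups. Exons of Spag17 overlap Wdr3 (-0.05), which lies on the opposite strand. Efcab2, of the nexin link, had 31.1, 34.5 and 50.4 CPM against 63.0, 74.0 and 82.2 CPM (-0.90, SE 0.14, edgeR adjusted p = 0.00169).

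Hydin, a giant central pair protein, had 11.7, 21.8 and 73.2 CPM in the knockouts and 122, 138 and 174 CPM in the wild types (log2 difference -2.001, SE 0.42, edgeR adjusted p = 0.00706). It stayed at 69.0 and 73.2 CPM in knockout replicates 1 and 2 and was not called without replicates 4 to 6 (edgeR adjusted p = 0.0517). Spag6, the member of the central pair list that was not called, lay at 0.157 to 0.582 CPM against 0.214 to 0.592 CPM. Iqub, of the radial spokes, fell by 1.03 (SE 0.17, edgeR adjusted p = 0.00267). Efhb and Fam166b, proteins inside the doublet microtubules, fell by 1.28 and 1.96.

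Tubulins and their modifying enzymes moved in both directions: of 31 genes tested 17 were lower and 6 higher, or 8 lower and 3 higher without knockout replicates 4 to 6. The 6 higher genes all encode tubulins (Tuba4a, Tubb4a, Tubb5, Tubb2b, Tubb6 and Tuba1c). The lower ones, apart from the tubulins Tubb4b and Tuba1a, were genes of the machinery that adds or removes glutamate and glycine chains. Tuba4a had 20.7, 25.6 and 29.0 CPM in the knockouts and 9.84, 10.8 and 12.6 CPM in the wild types, 2.23-fold higher (log2 difference 1.16, SE 0.09, edgeR adjusted p = 7.81e-05), and Tubb4a had 47.5, 51.4 and 58.1 CPM against 21.8, 26.3 and 31.9 CPM (0.93, SE 0.09, edgeR adjusted p = 0.000184). Both stood above all wild types in each knockout, as did 5.65% of all genes, and at like levels in replicates 1 to 3 and 4 to 6. They were picked for a small p in these same libraries, so this was partly given by the choice. Exons of Tuba4a overlap those of Stk16 on the opposite strand, which differed by -0.09.

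Tubb4b, a beta tubulin abundant in axonemes, had 479, 703 and 1096 CPM in the knockouts and 1026, 1116 and 1250.4 CPM in the wild types (log2 difference -0.60, SE 0.20, edgeR adjusted p = 0.0469), with overlap. It was not called without knockout replicates 4 to 6 (edgeR adjusted p = 0.2). Ttll10, a glycylase, had 0.118, 0.382 and 0.890 CPM against 1.46, 2.19 and 5.46 CPM (-2.56, SE 0.44, edgeR adjusted p = 0.00275), without overlap. Tubb5 (0.46) was called without knockout replicates 4 to 6, while Tubb2b (0.58), Tubb6 (0.72) and Tuba1c (0.65) were not, nor was Tuba1a (edgeR adjusted p = 0.301).

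**Figure D2:**
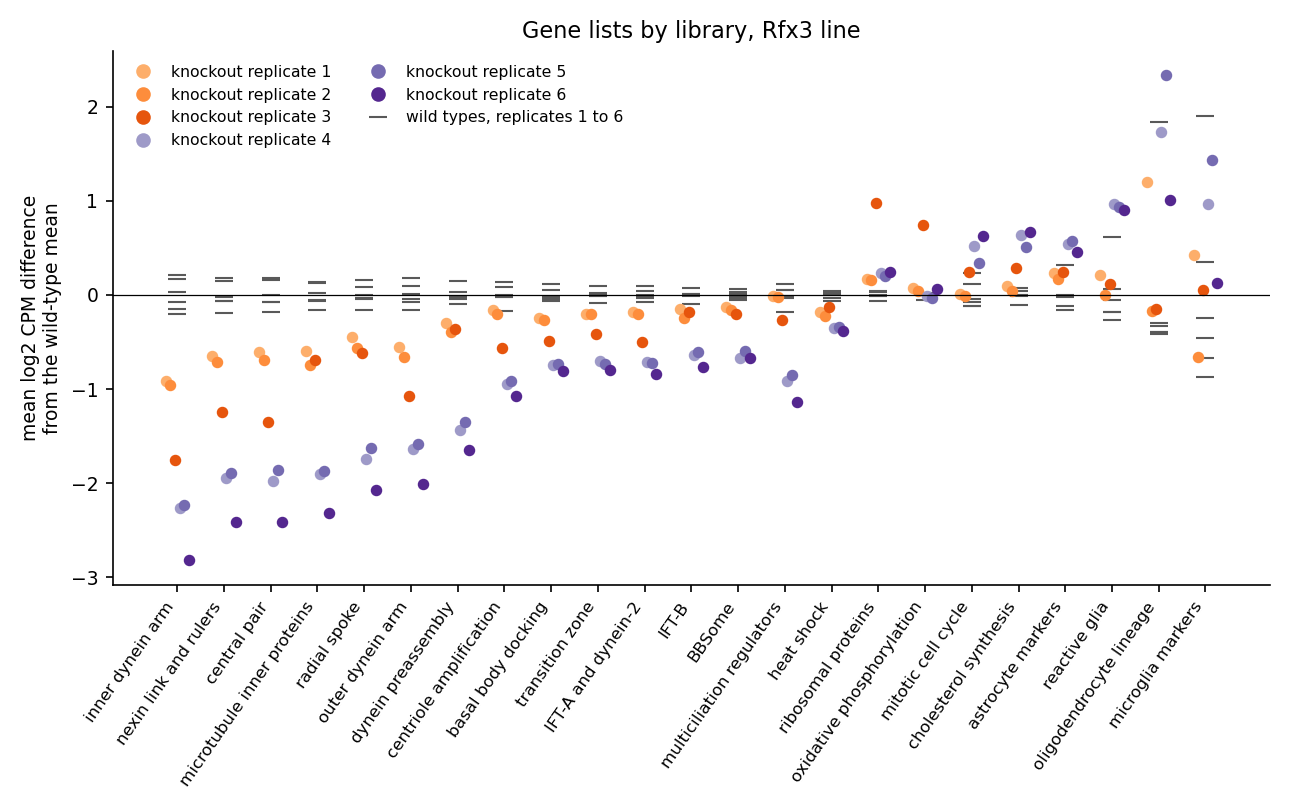
Mean difference of log2 CPM from the wild-type mean (vertical axis) over the tested members of 23 gene lists (horizontal axis), with the 6 knockouts as coloured points and the 6 wild types as grey dashes. Axonemal lists lie below 0 in all knockouts and lowest in replicates 4 to 6; ribosomal protein and respiratory chain genes stand out in knockout replicate 3, at 0.97 and 0.75.

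Transport and gate structures had medians nearer to 0 than the scaffold and the dynein arms. Lower were 12 of 23 genes of IFT-B, which carries cargo to the tip (median -0.35), 8 of 15 of IFT-A and the return motor dynein-2 (-0.46), 9 of 14 of the BBSome (-0.38) and 13 of 25 of the transition zone (-0.47). Without knockout replicate 3 the IFT-A and transition zone counts were 13 and 21. Without replicates 4 to 6 the counts of the 4 lists, in the same order, were 3, 1, 2 and 6. Ift88, a core subunit of IFT-B, had 33.8, 47.1 and 70.5 CPM in the knockouts and 80.1, 87.7 and 94.2 CPM in the wild types (log2 difference -0.81, SE 0.16, edgeR adjusted p = 0.00581), without overlap. Traf3ip1, at the edge of IFT-B, fell by 0.70, the motor gene Kif3a by 0.35, Wdr35 of IFT-A by 0.46 and Wdr60 of dynein-2 by 0.67. Rpgrip1l and Tmem231, of the transition zone, fell by 0.84 and 0.78, and Bbs7, of the BBSome, by 0.64. Of these genes Kif3a and Wdr35 (edgeR adjusted p = 0.0669 and 0.0938, in this order) were not called without replicates 4 to 6.

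Of the ciliary lists, centriole amplification kept the smallest share of its calls without knockout replicates 4 to 6, a fit with fewer libraries. The medians gave another order: there IFT-B went from -0.35 to -0.12 and the BBSome from -0.38 to -0.12. Of 25 genes of centriole amplification 16 were lower (median -0.55), but 1 without those replicates (9 unadjusted, median -0.24). This was Ccdc78, a deuterosome gene, which had 2.01, 3.81 and 7.22 CPM in the knockouts and 11.3, 13.8 and 16.6 CPM in the wild types (log2 difference -1.72, SE 0.27, edgeR adjusted p = 0.00194). Deup1, the scaffold of deuterosomes, had 217 to 272 CPM in knockout replicates 1 to 3 and 46.1 to 76.7 CPM in replicates 4 to 6, against 226 to 375 CPM in the wild types, and was not called by edgeR (adjusted p = 0.0748) but was by DESeq2 (adjusted p = 0.026). Plk4, the kinase that starts centriole duplication, was not called by edgeR either (-0.56, edgeR adjusted p = 0.133). Deup1 and Plk4 were called lower by limma with library weights (limma adjusted p = 6.74e-06 and 2.05e-05). Ccp110, a cap of centrioles, fell by 0.59 (SE 0.12, edgeR adjusted p = 0.00657), and was not called without replicates 4 to 6 (edgeR adjusted p = 0.0911).

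Basal body docking and the apical cortex had 17 of 28 genes lower (median -0.46), or 5 lower without knockout replicates 4 to 6 (median -0.25). Ezr, ezrin, which ties membrane to actin, had 367, 403 and 438 CPM in the knockouts and 518, 533 and 622 CPM in the wild types (log2 difference -0.43, SE 0.06, edgeR adjusted p = 0.00125). The fall was similar without knockout replicates 4 to 6 (-0.40). Dzip1l, a basal body gene, fell by 0.55 and was not called without them (edgeR adjusted p = 0.0541). Of 20 planar polarity genes, which orient cilia across the tissue, 6 were lower, or 2 lower without them: Vangl1 had 24.2, 30.2 and 32.7 CPM against 44.7, 48.6 and 52.5 CPM (-0.72, SE 0.08, edgeR adjusted p = 0.000296), without overlap and at -0.71 without replicates 4 to 6, and Ankrd6 fell by 0.84.

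Of the 16 regulators of multiciliation tested, 1 was lower (Ccna1, a cyclin, -0.98) and 1 higher (Tfdp1, a partner of E2F factors, 0.16). DESeq2 called 4 lower and 1 higher. The edgeR counts were 3 lower and 3 higher without knockout replicate 3, and 0 lower (1 unadjusted) and 0 higher (1 unadjusted) without knockout replicates 4 to 6. Mcidas, a coactivator that starts the programme, had 65.9 to 93.7 CPM in knockout replicates 1 to 3 and 13.3 to 22.5 CPM in replicates 4 to 6, against 69.2 to 112 CPM in the wild types (log2 difference -0.88, SE 0.44, edgeR adjusted p = 0.162). Ccno, a cyclin of centriole amplification, had 152 to 175 CPM in replicates 1 to 3 and 25.1 to 44.4 CPM in replicates 4 to 6, against 115 to 182 CPM. Neither was called by edgeR or DESeq2 in the 12 libraries. Mcidas and Ccno were called lower by limma with library weights (-2.06 and -1.82, limma adjusted p = 8.91e-06 and 2.28e-05), a fit that called 9148 genes in all. The 3 knockouts with numbers 4 to 6 lay far below all wild types, and the others within or just under their range.

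Myb, a transcription factor of the programme, had 168 to 234 and 50.6 to 81.9 CPM in the same sets of knockouts, against 181 to 254 CPM. Foxj1 had 1378 to 1480.0 and 680.5 to 764 CPM against 1437 to 1729 CPM, and Foxn4 18.497 to 32.2 and 3.27 to 5.55 CPM against 24.6 to 38.1 CPM. Trp73, p73, had 54.0 to 77.4 and 18.45 to 31.2 CPM against 73.0 to 94.0 CPM. In all 4 the knockouts 4 to 6 were the lowest libraries, and edgeR called none in the fit of the 12 libraries (adjusted p = 0.154, 0.0706, 0.138 and 0.0805, in this order). DESeq2 called Foxj1 (-0.53, adjusted p = 0.0367) and Trp73 (-0.78, adjusted p = 0.0377). All 4 were called lower by limma with library weights (limma adjusted p = 2.73e-05, 1.3e-05, 4.63e-06 and 1.79e-05, in the same order). A fit of all 34 libraries, which takes the spread from all groups, called these 4 and Mcidas lower (for Foxj1 -0.52, edgeR adjusted p = 0.0119). Foxj1 was also called when any 1 of knockout replicates 1, 2 and 3 was left out. Gmnc, which encodes GEMC1 and acts upstream of Mcidas, did not share this order, with 103 to 157 and 134 to 156 CPM against 106 to 139 CPM. The labels give nothing that sets replicates 4 to 6 apart.

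**Figure D3:**
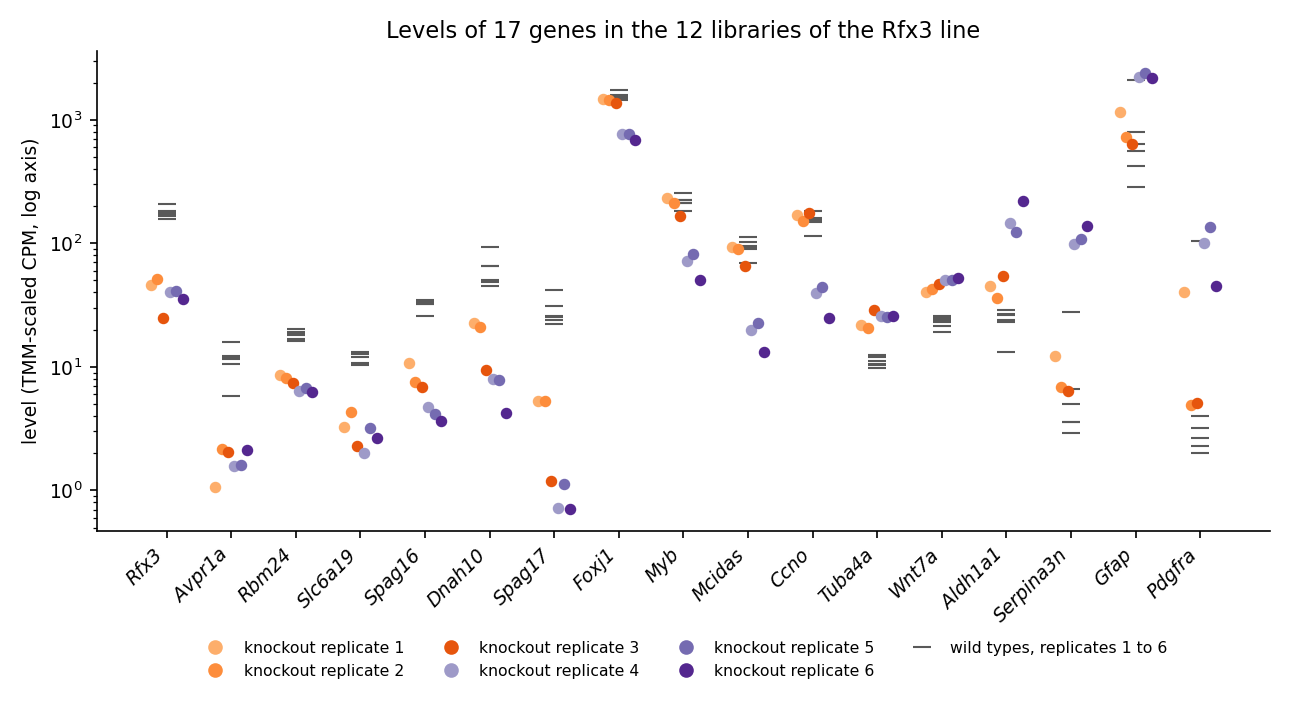
TMM-scaled CPM on a log axis (vertical) of 17 genes (horizontal axis), with the 6 knockouts as coloured points and the 6 wild types as grey dashes. Rfx3, Avpr1a, Rbm24 and Slc6a19 are low in all knockouts, while Mcidas is at 13.3 to 22.5 CPM and Serpina3n at 99.3 to 139 CPM in knockout replicates 4 to 6.

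A set of genes was lower by a like amount in all 6 knockouts. Avpr1a, the vasopressin receptor V1a, at chr10:122448499-122453452, had 1.07, 1.83 and 2.15 CPM in the knockouts and 5.78, 11.8 and 15.9 CPM in the wild types, 6.47-fold lower (log2 difference -2.69, SE 0.24, edgeR adjusted p = 9.18e-05). Rbm24, an RNA-binding regulator of splicing, had 6.26, 7.09 and 8.61 CPM against 16.1, 18.2 and 20.2 CPM, 2.501-fold lower (-1.32, SE 0.10, edgeR adjusted p = 4.77e-05). Slc6a19, a transporter of neutral amino acids, had 2.02, 2.94 and 4.34 CPM against 10.3, 11.4 and 13.2 CPM, 3.93-fold lower (-1.97, SE 0.17, edgeR adjusted p = 8.85e-05). In each of the 3 all knockouts lay below all wild types, as in 9.83% of all genes. The genes were picked for a small p in these same libraries, so even levels without overlap were partly given by the choice. Without knockout replicates 4 to 6 the 3 differed by -2.69, -1.15 and -1.81. Mllt1, a reader of acetylated histones, fell by 0.70 (SE 0.06, edgeR adjusted p = 7.51e-05).

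Other large decreases varied more. Fam183b, a gene of ciliated cells, had 0.108, 0.600 and 16.1 CPM in the knockouts and 17.01, 64.6 and 72.2 CPM in the wild types (log2 difference -3.97, SE 1.02, edgeR adjusted p = 0.0155). Knockout replicate 1 stood apart from the other knockouts, close to the wild types 4 and 5 at 17.01 and 19.5 CPM. Without it the log2 difference was -6.64, and without knockout replicates 4 to 6 the gene was not called (edgeR adjusted p = 0.0717). The list of other ciliary genes, to which it belongs, had 61 of 68 genes lower (median -1.24), or 46 without replicates 4 to 6. Cdhr3 and Cdhr4, cadherin-related genes, fell by 3.26 and 2.67, and the serotonin receptor gene Htr5b by 2.75. Vwa5b1 had 1.27, 3.06 and 10.05 CPM against 14.7, 27.0 and 39.9 CPM, also without overlap. Kcnj16, a potassium channel of glia and epithelia, fell by 1.32, and Col4a1 and Col4a2, the paired chains of basement membrane collagen, by 0.55 and 0.73.

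Chaperones fell in part: of 18 heat shock genes tested 8 were lower and 2, Bag3 (0.30) and Hspe1 (0.41), higher, or 5 lower and 0 higher (1 unadjusted) without knockout replicates 4 to 6. Dnaja4, a partner of HSP70, had 15.4, 18.4 and 30.4 CPM in the knockouts and 48.1, 54.2 and 66.8 CPM in the wild types (log2 difference -1.38, SE 0.17, edgeR adjusted p = 0.000546). Hsp90aa1, the inducible HSP90, had 799.9, 1042 and 1434 CPM against 1556, 1656 and 1796 CPM (-0.63, SE 0.15, edgeR adjusted p = 0.0115). In both, and in Hsph1, all knockouts lay below all wild types, as in 9.83% of all genes, and the call held without knockout replicates 4 to 6. Exons of Dnaja4 overlap those of Wdr61 on the opposite strand, which differed by 0.09.

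Among the increases, a few were alike in all knockouts. Wnt7a, a ligand of neural progenitors, had 40.0, 48.7 and 52.5 CPM in the knockouts and 19.2, 23.6 and 25.9 CPM in the wild types, 2.05-fold higher (log2 difference 1.03, SE 0.09, edgeR adjusted p = 9.18e-05). Qpct, which forms pyroglutamate at protein ends, had 11.9, 16.3 and 18.2 CPM against 6.82, 7.27 and 8.28 CPM (1.12, SE 0.10, edgeR adjusted p = 0.000107), and Asphd2 had 61.1, 63.5 and 81.5 CPM against 38.0, 39.3 and 43.9 CPM (0.74, SE 0.07, edgeR adjusted p = 0.000213). In each of these genes all knockouts lay above all wild types, as in 5.65% of all genes. They were picked for a small p in these same libraries, so this was partly given by the choice. Without knockout replicates 4 to 6 the differences were 0.92, 1.06 and 0.85, all called. Apln, apelin, was higher by 1.32, Bmp2 by 1.06 and Car2, carbonic anhydrase II, by 1.01, again called without those replicates. Of 29 Wnt pathway genes 6 were higher, Wnt7b (0.99) and Wnt5b (0.90) among them, and 1, Wnt11 (-1.83), was lower. In the fit without knockout replicates 4 to 6 the counts were 0 lower (2 unadjusted) and 2 higher, and Wnt7b, Wnt5b and Wnt11 (edgeR adjusted p = 0.254, 0.0972 and 0.0891, in this order) were not called.

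The largest increases were highest in knockout replicates 4 to 6. Serpina3n, an acute-phase protease inhibitor of reactive astrocytes, had 6.32 to 12.2 CPM in replicates 1 to 3 and 99.3 to 139 CPM in replicates 4 to 6, against 2.93 to 6.61 CPM in wild-type replicates 1 to 5 and 28.0 CPM in wild-type replicate 6 (log2 difference 2.90, SE 0.90, edgeR adjusted p = 0.0351). Its difference without knockout replicates 4 to 6 was 0.06. It also lost its call when any 1 of knockout replicates 4 to 6 or of wild-type replicates 1 to 5 was left out. Aldh1a1, which makes retinoic acid, had 35.9 to 54.1 and 123 to 221 CPM in these sets of knockouts, against 13.3 to 28.9 CPM (2.14, SE 0.42, edgeR adjusted p = 0.00537). It was also called in the first set alone (0.95, edgeR adjusted p = 0.0303). Of 15 retinoic acid genes 4 were higher, among them the receptor Rarg (0.45), or 2 higher without knockout replicates 4 to 6, where Rarg (edgeR adjusted p = 0.0658) was not called. Aldh1a1 lies within 10 Mb of Rfx3 on chromosome 19, so that loss of Rfx3 and sequence linked to the allele cannot be told apart for it.

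The glutamate receptor genes Grm3 and Gria4 were higher by 1.98 and 1.77, the semaphorin Sema7a by 1.76, Ccn3, a matricellular protein, by 1.98, Scrg1 by 1.97 and Igfbpl1 by 1.63. None of these 6 was called without knockout replicates 4 to 6. Gng3, a G-protein subunit, was higher by 1.69, or 1.34 without them, and was called in both fits; its exons overlap Bscl2 on the opposite strand, which differed by 0.05.

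Ependymal genes were present in both groups. All 30 ependymal markers passed the filter on low counts, and their summed level was 14410.1 to 18972 CPM in the knockouts and 14459.7 to 17431 CPM in the wild types. A sum weighs abundant members most. The mean log2 difference from the wild-type mean, which weighs members alike, was -0.56 to -1.73 in the knockouts. Of these markers 15 were lower and 1 higher (median -0.77), or 12 lower and 1 higher without knockout replicates 4 to 6. Tmem212 had 0.0787, 0.825 and 1.60 CPM against 7.09, 9.28 and 17.5 CPM (-3.65, SE 0.60, edgeR adjusted p = 0.00226), Zfp474 0 to 0.288 against 1.88 to 6.07 CPM, and Sntn, sentan of the ciliary tip, 0 to 0.0785 against 0.363 to 1.26 CPM, listed at 0 in 4 knockouts. Calml4 and Tm4sf1 fell by 1.48 and 0.98. Fam107a, also found in astrocytes, was the marker that was higher, with 34.6, 44.7 and 73.0 CPM against 15.8, 18.8 and 28.5 CPM (1.36, SE 0.21, edgeR adjusted p = 0.00183).

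Astrocyte markers were higher in 12 of 25 cases and lower in 1 (median 0.40), at a summed level of 17764 to 21553 CPM in the knockouts and 14601 to 20345 CPM in the wild types. In the fit without knockout replicates 4 to 6 the counts were 0 lower (0 unadjusted) and 3 higher (median 0.19). Ndrg2 had 291, 319.5 and 383 CPM against 193, 216 and 267 CPM (0.58, SE 0.09, edgeR adjusted p = 0.00181), and Acsbg1, a fatty acyl-CoA synthetase, 309.7, 372 and 414 CPM against 234, 249 and 289 CPM (0.53, SE 0.08, edgeR adjusted p = 0.00185). Both were above all wild types in each knockout and called without replicates 4 to 6. Gfap was not called (0.96, edgeR adjusted p = 0.174), with 639 to 1156 CPM in knockout replicates 1 to 3, 2192 to 2409 CPM in replicates 4 to 6, 286 to 799 CPM in wild-type replicates 1 to 5 and 2115 CPM in wild-type replicate 6. Aqp4, a water channel, lay at 292 to 712 CPM against 392 to 733 CPM. Aldh1l1 (1.10) and the receptor gene Ntsr2 (1.01) were higher, Aldh1l1 without a call when replicates 4 to 6 were left out (edgeR adjusted p = 0.0769). Of 36 reactive glia genes 8 were higher and 1 lower: Ptx3 had 14.4, 16.4 and 17.9 CPM against 7.86, 9.12 and 10.8 CPM (0.80, SE 0.09, edgeR adjusted p = 0.000461), alike in all knockouts, and Timp1 0.785, 2.79 and 6.33 CPM against 0.501, 0.783 and 1.13 CPM, highest in replicates 4 to 6. Counts of this list without those replicates were 2 lower and 1 higher, and Timp1 (edgeR adjusted p = 0.283) was not called. With all 12 libraries the called genes of the reactive glia list were a share near the 23.5% of all genes called in either direction.

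Oligodendrocyte lineage markers were higher in 4 of 16 cases: Olig1 (1.07), Olig2 (1.01), C1ql1 (1.01) and Mal (0.79). Of all genes tested 10.6% were called higher and 23.5% in either direction. The median of the list was 0.85, and 0.02 without knockout replicates 4 to 6, where the count was 2 higher and Olig1 and Olig2 (edgeR adjusted p = 0.0981 and 0.166, in this order) were not called. Olig1 had 145, 269 and 306 CPM against 79.6, 110.3 and 164 CPM (1.07, SE 0.24, edgeR adjusted p = 0.00828), with overlap. Pdgfra, the receptor of their precursors, was not called (1.496, edgeR adjusted p = 0.369): it had 40.0 CPM in knockout replicate 1, 45.5 to 136 CPM in replicates 4 to 6 and 104 CPM in wild-type replicate 6, but 4.90 and 5.08 CPM in knockout replicates 2 and 3 and 2.02 to 4.04 CPM in the other wild types. The summed level of the list was 659 to 992 CPM in the knockouts and 589 to 866 CPM in the wild types, with Opalin, of mature cells, under 0.1 CPM. Of 22 microglia markers 0 were called by edgeR (0 at an unadjusted p below 0.05) or by DESeq2, and their summed level was 252 to 979.5 CPM against 211 to 1216 CPM. The part of these cell types in the results was not tested.

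Neuronal markers moved both ways, with 4 of 19 lower and 4 higher, beside 12.9% and 10.6% of all genes. Without knockout replicates 4 to 6 the counts were 1 lower and 1 higher. Map2, a microtubule protein of dendrites, had 296, 421 and 446 CPM in the knockouts and 559.7, 579 and 636 CPM in the wild types (log2 difference -0.53, SE 0.09, edgeR adjusted p = 0.00284), without overlap, while Stmn2 had 39.7, 92.6 and 164 CPM against 34.7, 44.0 and 50.8 CPM (1.22, SE 0.28, edgeR adjusted p = 0.00948), with overlap. Choroid plexus markers were lower in 7 of 14 cases, at a summed 133 to 208 CPM against 230.5 to 258 CPM, with Kl and Htr2c under 0.1 CPM. Calml4 is in this list and in the ependymal one. Ttr, Slc4a5 and Prlr missed the low-count filter. Ttr had 4.30 CPM in knockout replicate 3 and 0 to 0.409 CPM in the other libraries. Kcne2, a potassium channel subunit of the choroid plexus, fell by 0.99. Fibroblast and meningeal markers were higher in 5 of 15 cases, Ptgds by 1.11 and Pdgfrb by 0.78. Pdgfrb is also a pericyte gene, and of 11 endothelial and mural markers it and Cnn1 (0.82) were higher, with Tie1, Cldn5, Emcn and Kcnj8 under 0.1 CPM. The called genes of the endothelial and mural list were a share near the 23.5% of all genes. Over the fibroblast and meningeal list the mean log2 difference was -0.13 to 0.24 in knockout replicates 1 to 3 and 0.72 to 1.495 in replicates 4 to 6. Leaving these out, the counts were 2 lower for choroid plexus, 1 lower and 2 higher for fibroblast and meningeal and 1 higher for endothelial and mural markers, and Stmn2, Kcne2 and Cnn1 (edgeR adjusted p = 0.0944, 0.103 and 0.0693, in this order) were not called.

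Of 25 cholesterol synthesis genes 16 were higher (median 0.41); without knockout replicates 4 to 6 edgeR called 0, with 11 at an unadjusted p below 0.05. Fdps, which makes farnesyl pyrophosphate, had 33.95, 50.7 and 60.6 CPM in the knockouts and 30.0, 31.0 and 33.3 CPM in the wild types (log2 difference 0.62, SE 0.13, edgeR adjusted p = 0.00775), without overlap. Tm7sf2, a sterol reductase that shares exon sequence with Vps51, was higher by 0.57. Of 38 genes of the mitotic cycle 14 were higher (median 0.30), or 1 lower and 1 higher without replicates 4 to 6. Pcna, the clamp of DNA polymerase, had 117, 129 and 171 CPM against 92.7, 98.1 and 112 CPM (0.44, SE 0.09, edgeR adjusted p = 0.0062), and the helicase subunit genes Mcm3 and Mcm5 were higher by 0.30 and 0.65. Of the genes of both lists named here, Fdps, Tm7sf2, Mcm3 and Mcm5 (edgeR adjusted p = 0.0911, 0.0737, 0.0542 and 0.185, in this order) were not called without those replicates.

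Of 33 ribosomal protein genes 15 were higher (median 0.38). In 28 of the 33 all knockouts lay above all wild types, against 5.65% of all genes. Knockout replicate 3, the library high in short genes, stood at a mean of 0.97 over this list and the other 5 at 0.16 to 0.25. Without it 28 were called higher, at a median of 0.22. Leaving out knockout replicates 4 to 6 instead, the count was 0 higher (32 unadjusted), at a median of 0.50, and Rps19 and Rpl10 (edgeR adjusted p = 0.0692 and 0.0805, in this order) were not called. Rps19 and Rpl10, examples of the list, were higher by 0.53 and 0.39, and reads of such genes can be shared with processed copies. Of 31 respiratory chain genes edgeR called 0 (7 higher at an unadjusted p below 0.05, which 37.4% of all genes reached in either direction) and DESeq2 called 2 higher, and without knockout replicate 3 edgeR called 9 higher and 2 lower.

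Counts in signalling lists stand beside 12.9% of all genes lower and 10.6% higher. Of 24 Notch pathway genes 2 were lower and 3 higher: Dtx1, a ligase of the pathway, fell by 0.71, and the receptor gene Notch3 rose by 1.08. Of 20 Hedgehog pathway genes 3 were lower and 4 higher. Iqce, a ciliary regulator, fell by 0.57. Of 29 genes of BMP and TGF-beta signalling 9 were higher and 1 lower. Inhbb, an activin subunit, was higher by 0.44. Id3, a target of BMP signals, was higher by 1.26 and not called without knockout replicates 4 to 6 (0.47). In that fit the counts were 1 lower and 0 higher (3 unadjusted) for Notch, 2 lower and 0 higher (2 unadjusted) for Hedgehog and 0 lower (2 unadjusted) and 1 higher for BMP and TGF-beta genes, and Notch3 and Inhbb (edgeR adjusted p = 0.061 and 0.114, in this order) were not called.

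Other lists held calls in both directions, beside the same shares of all genes. Of 23 markers of radial glia and stem cells 4 were higher and 1 lower, with Fabp7, a fatty acid carrier of radial glia, at 175, 329.6 and 363 CPM against 118, 143 and 196 CPM (0.93, SE 0.21, edgeR adjusted p = 0.0101) and Btg2, which slows division, at 0.49. Of 30 genes of junctions and cadherins 9 were higher and 3 lower. Cdh20, a cadherin, had 7.21, 8.59 and 9.15 CPM against 3.95, 4.86 and 5.50 CPM (0.80, SE 0.11, edgeR adjusted p = 0.000986), without overlap, and Nectin2 was higher by 0.41. Of 33 synaptic and glutamate receptor genes 6 were higher, among them Grik5 (0.48), and 2 lower, among them Grin3a (-0.84). In the fit without knockout replicates 4 to 6 the counts were 0 lower (1 unadjusted) and 1 higher for radial glia, 0 lower (4 unadjusted) and 2 higher for junctions and 1 lower and 1 higher for synaptic genes, and Fabp7 and Btg2 (edgeR adjusted p = 0.119 and 0.0923, in this order) were not called.

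Of 28 genes of glycolysis and hypoxia 10 were higher and 4 lower. Gpi1, glucose-6-phosphate isomerase, had 361, 405 and 439 CPM against 279, 296 and 309 CPM (0.44, SE 0.06, edgeR adjusted p = 0.000837). Of 20 genes of fatty acid synthesis 4 were higher, Me1, malic enzyme, by 0.50, and 3 lower, Acacb, an acetyl-CoA carboxylase, among them (-0.92). Gpi1 and Me1 were called without knockout replicates 4 to 6 and Acacb was not (edgeR adjusted p = 0.0609). Of 23 genes of p53 and cell death 7 were higher and 1 lower, with Trp53 at 0.35 and its target Phlda3 at 0.63. In the fit without replicates 4 to 6 the counts were 0 lower (2 unadjusted) and 3 higher for glycolysis and hypoxia, 1 lower and 1 higher for fatty acid synthesis and 0 lower (2 unadjusted) and 0 higher (4 unadjusted) for p53 and cell death, and Trp53 and Phlda3 (edgeR adjusted p = 0.0817 and 0.0856, in this order) were not called.

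Stress responses had 7 of 29 genes higher and 4 lower: Dnajc3 and Ppp1r15a, regulators of the unfolded protein response, fell by 0.40 and 0.36. Immediate early genes had 4 of 22 higher, with Ier3 at 8.35, 12.2 and 16.3 CPM against 6.05, 6.72 and 7.43 CPM (0.86, SE 0.15, edgeR adjusted p = 0.00274), and 2 lower. Interferon genes had 4 of 30 higher, Irf1 by 0.38, and 2 lower, Rsad2, viperin, among them (-0.82). Adenylate kinases had 3 of 8 lower and 2 higher, Ak3 (0.36) and Ak5 (0.46). Of 33 genes of the extracellular matrix 2 were lower, Col4a1 and Col4a2, and 6 higher, and of 28 transporters and channels 5 were lower and 5 higher. The called genes of the interferon (6 of 30) and matrix (8 of 33) lists were shares near the 23.5% of all genes. Leaving out knockout replicates 4 to 6, the counts were 1 lower and 1 higher for stress, 0 lower (4 unadjusted) and 1 higher for immediate early, 0 lower (2 unadjusted) and 0 higher (5 unadjusted) for interferon, 2 lower and 0 higher (4 unadjusted) for adenylate kinase, 2 lower and 0 higher (2 unadjusted) for matrix and 1 lower and 1 higher for transporter genes, and Ppp1r15a, Irf1, Rsad2, Ak3 and Ak5 (edgeR adjusted p = 0.0542, 0.123, 0.103, 0.0911 and 0.0637, in this order) were not called.

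Without knockout replicate 3 more genes were called in many of these lists: 8 Notch, 10 Hedgehog, 10 Wnt and 14 BMP and TGF-beta genes were called higher, as were 10 radial glia, 6 endothelial and mural, 16 junction, 11 synaptic, 11 matrix, 9 fatty acid, 13 p53 and 7 interferon genes, and 7 stress genes were called lower. Counts that were 0 or 1 also moved: higher were 2 ependymal markers and 1 gene each of the RFX, planar polarity and IFT-A lists, and 1 cholesterol synthesis gene was lower.

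Genes near Rfx3 on chromosome 19 tend to be inherited with the targeted allele. Of 97 genes tested within 10 Mb, 22 were called (22.7%), 14 lower and 8 higher, against 23.5% elsewhere, and within 5 Mb 16 of 51 (31.4%). The smallest p among them belonged to the uncharacterised gene 4430402I18Rik, which had 5.03, 6.57 and 8.57 CPM in the knockouts and 18.8, 22.0 and 24.2 CPM in the wild types (log2 difference -1.71, SE 0.14, edgeR adjusted p = 8.85e-05). Mamdc2 was higher by 1.15 (SE 0.13, edgeR adjusted p = 0.000333), and Il33, an alarmin cytokine, fell by 0.97 (SE 0.13, edgeR adjusted p = 0.000781). Groups overlapped in none of the 3. Exons of 4430402I18Rik overlap Slc1a1 (1.30) on the opposite strand. For these genes, and for Aldh1a1 and Ak3 in the same window, loss of Rfx3 and sequence linked to the allele cannot be told apart.

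The effect of Rfx3 loss was set against that of Rfx2 loss as a difference of differences in 1 fit of all 34 libraries, where each line has its own wild types. Of 14833 genes tested 570 differed (3.84%), 312 with a more negative Rfx3 effect (2.1%) and 258 with a more positive one (1.74%). In a fit of these lines alone the split was 248 and 318. Without knockout replicates 4 to 6 the count was 1964, with 596 more negative and 1368 more positive. Ciliary lists were lower in both: their 378 genes had a median log2 difference of -0.78 in the Rfx3 line and -0.62 in the Rfx2 line. The difference was called more negative for Rfx3 in 15 of them and more positive in 1, Tuba4a. This turned without knockout replicates 4 to 6, to 9 more negative and 57 more positive, and 10 of the genes were called in both fits. The side on which most of these calls fell thus depended on these 3 libraries. Inner dynein arm genes had medians of -1.64 and -0.81, with 2 called, and cholesterol synthesis genes 0.42 and 0.09, with 5 called.

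**Figure D4:**
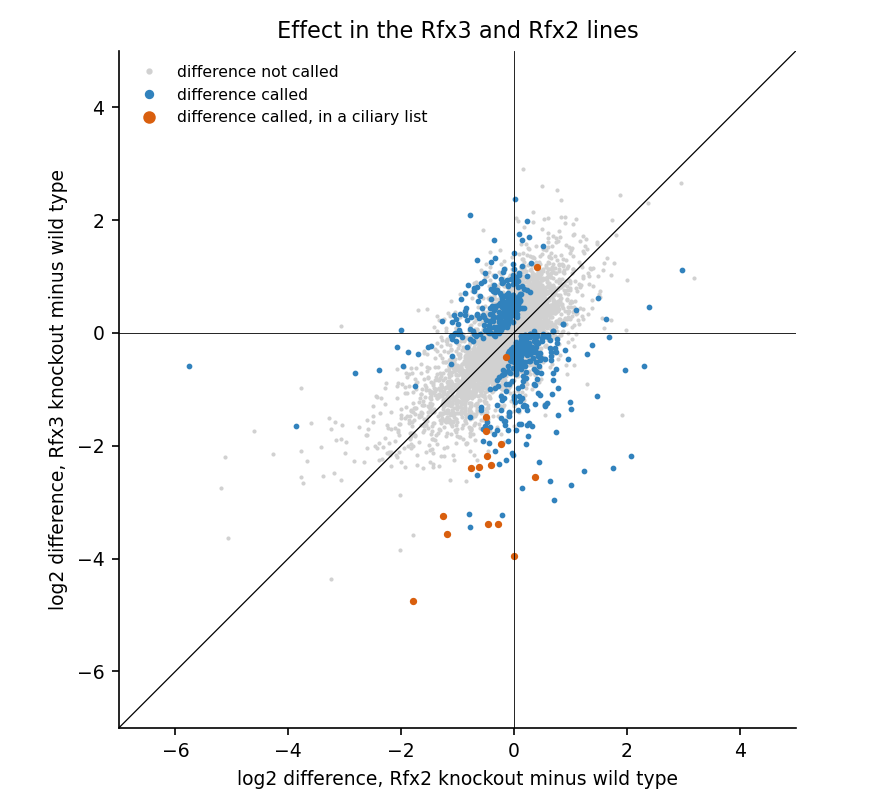
Log2 difference in the Rfx3 line (vertical axis) against that in the Rfx2 line (horizontal axis) for 14340 genes, with genes whose difference between lines was not called in grey, called ones in blue and those of the ciliary lists in orange; the diagonal marks equal effects. Of the orange points 15 lie below the diagonal, Efcab1 (-3.39 and -0.29) and Cfap73 (-3.38 and -0.46) among them, and Tuba4a lies above it.

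Efcab1 and Fam183b fell with Rfx3 loss but were not called in the Rfx2 line. Their effects differed by -3.11 (SE 0.42, edgeR adjusted p = 2.08e-05) and -3.95 (SE 0.88, edgeR adjusted p = 0.00744), or by -2.42 and -2.95 without knockout replicates 4 to 6, both called. Avpr1a had effects of opposite sign, -2.69 and 1.01 (difference -3.70, SE 0.40, edgeR adjusted p = 2.34e-07). A more negative Rfx3 effect was also called for Cfap73 (-2.93), Ttll10 (-2.92), Vwa5b1 (-2.89), Spag17 (-2.37), Slc6a19 (-2.18), Cdhr3 (-2.004), Spag16 (-1.94), Armc4 (-1.76), Wdr49 (-1.74) and Mllt1 (-0.92). Of these 10 genes Cdhr3 was not called without knockout replicates 4 to 6 (-1.36, edgeR adjusted p = 0.0656).

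In the other direction, Hs3st6, a heparan sulfate sulfotransferase, had effects of -0.71 and -2.81 (difference 2.10, SE 0.54, edgeR adjusted p = 0.0221), and Slc13a5, a citrate transporter, -0.66 and -2.39 (1.73, SE 0.47, edgeR adjusted p = 0.0313). The Rfx3 effect was called for neither in this fit (edgeR adjusted p = 0.101 for both). In the 12 libraries Hs3st6 was not called (edgeR adjusted p = 0.157). Slc13a5 was called there (edgeR adjusted p = 0.0293), but not without knockout replicates 4 to 6 (edgeR adjusted p = 0.174). Grm3 differed by 1.74 (edgeR adjusted p = 0.0414), with 0.24 in the Rfx2 line, but by 0.30 without knockout replicates 4 to 6 (edgeR adjusted p = 0.616). Ptx3 rose in the Rfx3 line and fell in the Rfx2 line (0.81 and -0.65), with a difference of 1.455 (edgeR adjusted p = 0.00011). Rfx2 fell in both lines, by more in its own (-1.11; difference 0.55, edgeR adjusted p = 0.0316), while Rfx3 was not called in the Rfx2 line (-0.04). For Tmem212 (-3.63 and -5.07) and Htr5b (-2.74 and -5.18) the difference between lines was not called. In the fit without knockout replicates 4 to 6 it was called for Htr5b (3.27, edgeR adjusted p = 0.0406), and also for Cdhr4, Ccdc78, Foxj1, Mcidas, Ccno and Foxn4, which were not called with all libraries.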

How the data were processed

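RNA was total RNA made into libraries with Illumina's TruSeq RNA-seq protocol, per the labels' protocols. The deposited table holds 1 count per gene and library, which the authors made with CASAVA 1.8.2, STAR 2.4 and featureCounts 1.4.6 on GRCm38, per the submitters' processing notes. RNA selection, strandedness of counting, other settings and the release of the annotation were not given in the sources used here. Of 21647 genes 21583 matched GENCODE M21 by identifier, and the other 64 held 0.0362 to 0.0417% of counts in the Rfx3 line. Groups were read from sample titles. Separate embryos or cultures are not named for the replicates, so that p-values measure the spread between these libraries, part of which may be technical. Y-linked counts ran from 0.107 to 267.9 CPM in the knockouts and from 0.137 to 249.5 CPM in the wild types. The libraries of a group are thus not all repeats of the same culture. Whether libraries alike in these counts are repeats is not given.

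Genes were kept with filterByExpr (minimum count 10, minimum total 15), scaled by TMM and tested with the quasi-likelihood test of edgeR 4.0.16 in R 4.3.3, with Benjamini-Hochberg adjustment over all genes tested and a threshold of 0.05. Log2 CPM used a prior count of 2. The difference between the Rfx3 and Rfx2 effects came from a fit of all 34 libraries. Tables and figures used Python 3.11.15, pandas 2.3.3, numpy 2.4.6, scipy 1.17.1 and matplotlib 3.10.9. The fit was also run on simulated counts with known changes. These held no knockouts set apart and no trend with gene length, so that run cannot show how the test handles these features. Alternatives were DESeq2 1.42.0, RLE scaling, no filter, limma 3.58.1 with voom and library weights, a block for the replicate number, a term for Y-linked counts, and each library left out in turn. Leaving out knockout replicates 4 to 6 together, and knockout replicate 3 with wild-type replicate 6, was chosen after seeing the data.

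The gene lists and members were chosen with earlier results of these data known. Named genes are all tested RFX genes, the 10 largest increases and decreases and the 5 smallest p in each direction among called genes whose log2 CPM averaged 1 or more, with all 6 knockouts on 1 side of the wild-type mean, 2 called genes with the smallest p per list, 3 near Rfx3 and 3 per direction for the difference from Rfx2. The other genes named were chosen with their values in view. Some genes that the rule names are not reported here. Exons of 20 of the 162 genes named overlap another tested gene, so that their reads may be shared: beside those given with the results, Ccdc78, Cfap73, Fam166b, Ezr, Dnah17, Hspe1, Ak3, Ak5 and Ppp1r15a on the opposite strand and Cdhr4 and Dnaaf3 on the same strand.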

Additional observations from a re-analysis of the deposited data

Results flagged for a closer look

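In 42 of 424 groups of 6 libraries 1 library lay far from the others, by a gap above 0.625 of the whole range, and chance flags about 1 in 20 groups. Wild-type replicate 6 was the highest of its group for Aldh1l1 (129 CPM), Aqp4 (732 CPM), Cdhr4 (25.5 CPM), Dnah5 (174 CPM), Dnaja4 (66.8 CPM), Efcab1 (76.1 CPM), Ezr (622 CPM), Gfap (2115 CPM), Pdgfra (104 CPM), Scrg1 (7.61 CPM), Serpina3n (28.0 CPM), Sntn (1.26 CPM), Tmem212 (17.5 CPM), Ttll10 (5.46 CPM) and Zfp474 (6.07 CPM). Wild-type replicate 6 was the lowest of its group for Hs3st6 (2.26 CPM), Me1 (95.4 CPM) and Plk4 (82.0 CPM). Knockout replicate 3 was the highest of its group for Hspe1 (75.2 CPM), Rfxap (63.7 CPM), Rps19 (209 CPM) and Tuba1a (1660.0 CPM). Knockout replicate 3 was the lowest of its group for Map2 (296 CPM), Rfx5 (27.7 CPM) and Rfx7 (36.1 CPM). Wild-type replicate 4 was the highest of its group for Ntsr2 (13.7 CPM) and Ptgds (10.6 CPM). Wild-type replicate 4 was the lowest of its group for Rfxank (10.6 CPM) and Spag16 (25.99 CPM). Knockout replicate 1 was the highest of its group for Fam183b (16.1 CPM). Wild-type replicate 2 was the highest of its group for Bag3 (62.0 CPM). Whole lists stood apart in the same libraries, by the mean log2 difference from the wild-type mean. In knockout replicate 3 these were the lists planar polarity (-0.75), Hedgehog pathway (-0.29), oxidative phosphorylation (0.75), ribosomal proteins (0.97) and junctions and cadherins (-0.25). In wild-type replicate 6 these were the lists astrocyte markers (0.32), reactive glia (0.61), oligodendrocyte lineage (1.84), interferon response (0.58), oxidative phosphorylation (-0.049) and transporters and channels of ependyma (0.18).

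The effects of Rfx3 and Rfx2 loss differed by the test of the difference itself, at an edgeR adjusted p below 0.05, for 41 of the genes named. More negative with Rfx3 loss, in log2 units, were 4430402I18Rik (-1.16), Armc4 (-1.76), Avpr1a (-3.70), Cdhr3 (-2.004), Cfap73 (-2.93), Dnah7c (-1.0), Dnaja4 (-0.78), Efcab1 (-3.11), Ezr (-0.29), Fam183b (-3.95), Map2 (-0.91), Mllt1 (-0.92), Rbm24 (-0.74), Rfx3 (-2.10), Slc6a19 (-2.18), Spag16 (-1.94), Spag17 (-2.37), Ttll10 (-2.92), Vwa5b1 (-2.89), Wdr49 (-1.74) and Zfp474 (-2.96). More positive were Btg2 (0.54), C1ql1 (1.34), Cnn1 (0.94), Fdps (0.63), Gng3 (1.42), Gpi1 (0.26), Grm3 (1.74), Hs3st6 (2.10), Igfbpl1 (1.496), Mal (1.49), Me1 (0.43), Ntsr2 (1.03), Phlda3 (0.73), Ptx3 (1.455), Qpct (1.12), Rfx2 (0.55), Sema7a (1.67), Slc13a5 (1.73), Tm7sf2 (0.49) and Tuba4a (0.75). Without knockout replicates 4 to 6, Cdhr3, Cnn1, Dnah7c, Dnaja4, Ezr, Gpi1, Grm3, Igfbpl1, Rbm24, Sema7a, Tm7sf2 and Zfp474 no longer differed by this test.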

How the results depend on the processing

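The number of genes called in the Rfx3 line was 3374 with edgeR (1857 lower, 1517 higher), and 4247 with DESeq2, 3318 with RLE scaling, 3017 with no filter and 3073 with a term for Y-linked counts. It was 9148 with limma and library weights (4356 lower, 4792 higher) and 5367 in the fit of all 34 libraries (2647 lower, 2720 higher). Leaving out 1 library gave 2139 (wild-type replicate 3) to 5549 (knockout replicate 3). Without knockout replicates 4 to 6 it was 996 (717 lower, 279 higher), and without knockout replicate 3 and wild-type replicate 6 5626 (2813 lower, 2813 higher). The causes were not tested. The difference from the Rfx2 effect was called for 570 genes (312 more negative, 258 more positive), 911 with DESeq2, 470 with no filter and 566 with both lines alone (248 more negative, 318 more positive). Leaving out 1 library gave 412 to 961, the highest without knockout replicate 2 of the Rfx3 line. More genes were more positive than more negative in 14 of these 26 fits, as without knockout replicate 3 of the Rfx3 line (322 more negative, 431 more positive), and fewer in the other 12. Without knockout replicates 4 to 6 it was 1964 (596 more negative, 1368 more positive), and without knockout replicate 3 and wild-type replicate 6 805 (328 more negative, 477 more positive). The share of promoters with an X-box was 4.97%, and 1.57% for the strict form. Within 5 Mb of Rfx3 31.4% of genes were called, against 22.7% within 10 Mb.

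Of 141 named genes called, 82 kept the call in all 21 alternatives and 59 lost it in at least 1. The call ended when any 1 of the replicates in parentheses was left out for Ccna1 (knockout 4, 5, 6 or wild type 1, 2, 3, 4, 5), Hspe1 (knockout 4, 5, 6 or wild type 1, 2, 3, 4, 5, 6), Id3 (knockout 5, 6 or wild type 1, 3, 5), Serpina3n (knockout 4, 5, 6 or wild type 1, 2, 3, 4, 5), Slc13a5 (knockout 4, 5, 6 or wild type 1, 3, 5), Tfdp1 (knockout 4, 6 or wild type 1, 2, 3, 5, 6), Tuba1a (knockout 2, 4, 5, 6 or wild type 1, 2, 3, 5, 6), Tubb4b (knockout 4, 5, 6 or wild type 1, 2, 3, 4, 5, 6), Wnt7b (knockout 4, 5, 6 or wild type 1, 2, 3, 4, 5). It was gained in the same way for Deup1 (knockout 1, 2), Foxj1 (knockout 1, 2, 3), Gfap (wild type 6), Gmnc (knockout 3), Hs3st6 (knockout 3), Pdgfra (wild type 6), Rfx4 (knockout 3), Rfx8 (knockout 1), Trp73 (knockout 1, 2). With library weights limma gained the call, in the same direction, for 15 named genes. These were Aqp4, Ccno, Deup1, Foxj1, Foxn4, Gfap, Gmnc, Hs3st6, Mcidas, Myb, Pdgfra, Plk4, Rfx4, Rfx8 and Trp73. With the Y-linked term Grm3, Id3, Serpina3n, Timp1, Tubb4b and Wnt7b lost the call. The direction turned without knockout replicates 4 to 6 for Aqp4 (-0.20), Ccno (0.13), Pdgfra (-0.21) and Spag6 (0.30), and with the Y-linked term for Aqp4 (-0.016). With library weights it turned for Rfx5 (0.019), Rfx7 (0.070), Rfxank (-0.020) and Rfxap (-0.27). Without knockout replicate 3 and wild-type replicate 6 it turned for the same 4 genes (0.038, 0.0090, -0.014 and -0.16). With 1 library left out the log2 difference ranged from -0.096 to 0.036 for Rfx5, -0.011 to 0.083 for Rfxank and -0.12 to 0.10 for Rfxap. In the main edgeR fit of the 12 libraries these 8 genes were not called. With library weights limma called Ccno (-1.82), Pdgfra (4.63), Aqp4 (0.50) and Rfxap, the last with its sign turned (-0.27, limma adjusted p = 0.00691).

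With the replicate number as a block 2205 genes were called (1410 lower, 795 higher) in the Rfx3 line and 342 (211 more negative, 131 more positive) for the difference from Rfx2. Libraries with the same number did not deviate together (correlations -0.364 to 0.204 over 6 pairs). Of the knockouts only number 3 correlated best with the wild type of its own number. Knockouts 1, 2 and 3 all correlated best with wild type 3, and knockouts 4 and 5 with wild type 6. Libraries that stand apart weigh on these correlations, so this check cannot settle whether the numbers pair the samples. Under the block the calls of Bag3, Hspe1, Id3, Serpina3n, Slc13a5 and Tfdp1 were lost and Deup1 was gained.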
